A study of Solanum lycopersicum with 31 samples.

Results

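The genes described are the enzymes that make chlorophylls and carotenoids in tomato leaves, with a few proteins that share their names. They were taken from the deposited annotation by a search of the product names for terms such as chlorophyllide, magnesium-chelatase, porphyrinogen, phytoene, lycopene, carotene and zeaxanthin. The search found 46 of 31146 genes. Those taken by name include a glutamyl-tRNA reductase-binding protein (LOC101265521), the protochlorophyllide-dependent translocon component 52 (LOC101255583) and D27 carotene isomerases (LOC101266539 and LOC101266560). They are not taken to be pigment enzymes, but they were kept in all counts below. Leaf RNA came from wild-type Solanum lycopersicum of the cultivar Moneymaker, raised in a growth chamber under metal halide and incandescent lamps, in 31 libraries of 8 groups. Above the plants lay a filter of an organic solar cell blend, FTAZ:IT-M (FI), PTB7-Th:IEICO-4F (PI) or FTAZ:PCBM (FP), or a spectrally neutral control filter (C). Each filter was used in 2 intensity experiments, labelled Height Controlled (HC) and PPFD Controlled (PC, where PPFD is the photosynthetic photon flux density). The groups were therefore FI_HC, PI_HC, FP_HC, C_HC, FI_PC, PI_PC, FP_PC and C_PC, with 4 libraries each except PI_HC with 3. Nothing in the labels says that the libraries of a group came from separate plants, so p-values measure only the spread between these samples, which may be technical. No plant age is given in the sources used here, and how the filtered spectra differ was not analysed here.

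Chlorophylls and haem share the early tetrapyrrole pathway, which turns glutamate on its transfer RNA into protoporphyrin IX in the plastid. Magnesium chelatase commits protoporphyrin to chlorophyll, and the branch then passes through protochlorophyllide, whose reduction in flowering plants needs light. Carotenoids come from geranylgeranyl diphosphate through phytoene and lycopene to the carotenes and xanthophylls, which collect light and, in the xanthophyll cycle, help to dissipate it.

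Library totals lay between 13680201 and 15211217 counts. After TMM normalisation of library size, 21 leaf mesophyll marker genes (light-harvesting, Rubisco and related genes) held 1.81% to 7.40% of the counts of a library. Of the marker genes of other cells, 11 of 26 trichome genes and 2 of 17 phloem genes had no count in any library. Single libraries bear on the results in 2 ways. In C_PC 4, PI_PC 4 and FP_PC 4, called the mismatched libraries here, the file identifier holds the code of another group than the label does, and the labels were followed. In a principal component analysis of 2000 variable genes, only 2 of them pigment genes, C_PC 4, PI_PC 2 and PI_PC 3 scored -61.7, -60.2 and -58.6 on the leading axis, away from the other 28, and these are called the set-apart libraries. On that axis the mismatched PI_PC 4 scored 29.2 and FP_PC 4 3.62, and C_PC 1 to 3 scored 20.8, 6.9 and 30.2. Whether labels were exchanged was not tested, and all results with the PC groups rest on the labels. Results are therefore given with all libraries, without the mismatched ones and without the set-apart ones.

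Of the 46 genes, 38 had enough counts to be tested, and the smallest count of a tested gene in any library was 16. The other 8 averaged at most 2.90 counts per library. They are a phytoene desaturase (pds), 2 phytoene synthase genes (LOC101267734 and LOC112940751), divinyl chlorophyllide a 8-vinyl-reductase (LOC101247061), uroporphyrinogen-III synthase (LOC101262008), a protoporphyrinogen oxidase-like gene (LOC101251358), uroporphyrinogen decarboxylase 1 (LOC101260578) and a D27 carotene isomerase (LOC101266560). Fragments that overlap more than 1 exon record were not counted, so a low count of a gene with several annotated transcripts is no measure of its RNA. Among the untested genes 5 have 2 or more transcripts. Among the tested ones, zds, LCY1, Psy1, PSY2 and CRTISO could be counted over only 31.1%, 8.5%, 8.4%, 7.1% and 4.4% of their exon bases. The other 33 tested genes had every exon base under 1 record, and levels are compared between genes only among these. Fragments across an exon junction were not counted in these genes either, so genes with different numbers of exons compare only roughly. The level is CPM (the usual count rate normalised to library size, here with TMM factors) per kilobase of exon.

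Per kilobase, the highest mean levels over all libraries belonged to the chlorophyll side. Geranylgeranyl diphosphate reductase (LOC101262299), which reduces the tail of chlorophyll to phytyl, averaged 1774 CPM per kilobase, and the cyclase that closes the fifth ring of chlorophyll (LOC101257518) averaged 1216. The ChlH subunit of magnesium chelatase (LOC101244176), which binds the porphyrin, averaged 649, against 260 for ChlI (LOC101255435) and 37.97 for ChlD (LOC101248868). ChlH, ChlI and ChlD have 5, 3 and 15 exon records and LOC101262299 has 1, and the part of the lost junction fragments in this order was not tested. In carotene synthesis the highest was the prolycopene isomerase LOC101247017 at 47.8 CPM per kilobase, and lycopene epsilon-cyclase (CrtL-e-1), at the fork towards lutein, averaged 27.1. Among the xanthophyll and other carotene genes the highest was a D27 carotene isomerase (LOC101266539) at 372 CPM per kilobase, above ChlI. Between the highest and the lowest of the 31 libraries the CPM of a tested gene differed by 1.64-fold to 10.1-fold, with a median of 2.67-fold. The widest range was that of the protochlorophyllide oxidoreductase LOC101244717, with 17.0 CPM in PI_PC 2 and 171 CPM in PI_PC 4.

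**Figure D1:**
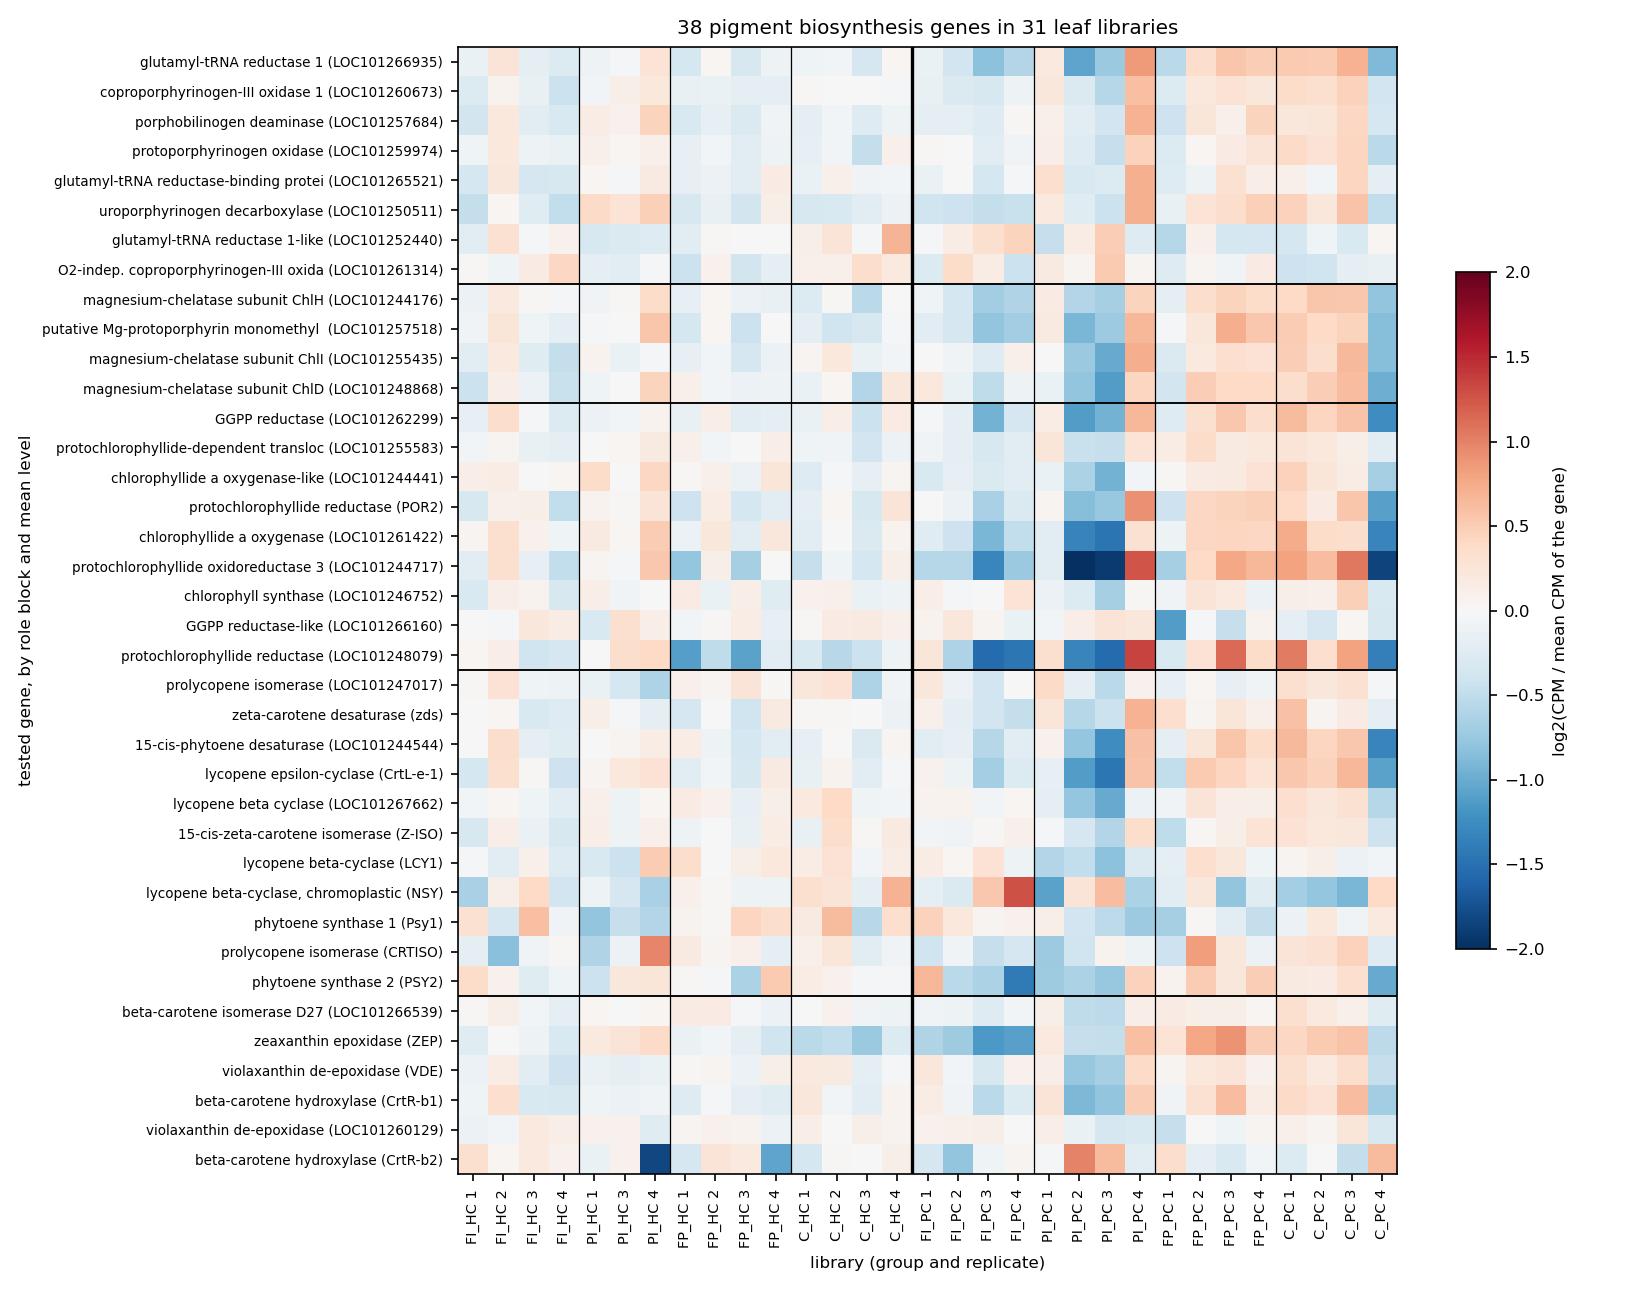
Level of the 38 tested genes (rows, in 5 role blocks from early tetrapyrrole steps at the top to xanthophyll steps at the bottom) in the 31 libraries (columns), as log2 of CPM over the mean CPM of the gene. The columns C_PC 4, PI_PC 2 and PI_PC 3 are the lowest for 12 of the 38 genes, and PI_PC 4 is the highest for 14.

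As % of counts after TMM scaling, the summed level of all 46 genes was lowest in 3 libraries, C_PC 4, PI_PC 2 and PI_PC 3. It was 1.11%, 0.989%, 0.744% and 0.894% of counts in FI_PC, and 1.64%, 1.57%, 1.65% and 0.671% in C_PC. In PI_PC the sum was 1.29%, 0.693%, 0.700% and 1.72%, and in FP_PC 1.06%, 1.45%, 1.64% and 1.51%. Thus 3 C_PC libraries lay above every FI_PC library, while C_PC 4 lay below them all. On this scale the PI_PC libraries ran from below every FI_PC library to above every C_PC library. Without TMM scaling PI_PC 2 and 3 held 0.799% and 0.82% of counts, above FI_PC 3 at 0.766%, and C_PC 4 was still the lowest at 0.752%. The 4 HC groups were closer together, with means of 1.16% ± 0.156 in FI_HC, 1.24% ± 0.147 in PI_HC, 1.10% ± 0.0905 in FP_HC and 1.09% ± 0.135 in C_HC (SD, n = 4, and n = 3 for PI_HC). The mesophyll markers moved with these sums: their share, scaled in the same way, was 3.37%, 3.17%, 2.48% and 3.11% in FI_PC, against 6.31%, 5.15%, 6.17% and 1.85% in C_PC. The summed level of 26 trichome markers was also lowest in the set-apart libraries, at 126 and 109.8 CPM in PI_PC 2 and 3 and 88.6 CPM in C_PC 4, against 167 to 491 CPM in the other 28. That of 9 senescing leaf markers was highest in C_PC 4, at 392.2 CPM, and came to 225, 220.3, 196.5 and 195 CPM in FI_PC, against 326, 294, 291 and 392.2 CPM in C_PC, without overlap. Nearly all of this sum came from a STAY-GREEN LIKE gene and SGR1, with mean counts of 2911 and 1179, against at most 20.4 for any other gene of the list. Both also belong to the chlorophyll breakdown genes described below. The part of these markers in the results was not tested. In whole leaves, fewer cells of a type and less RNA per cell cannot be told apart.

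**Figure D2:**
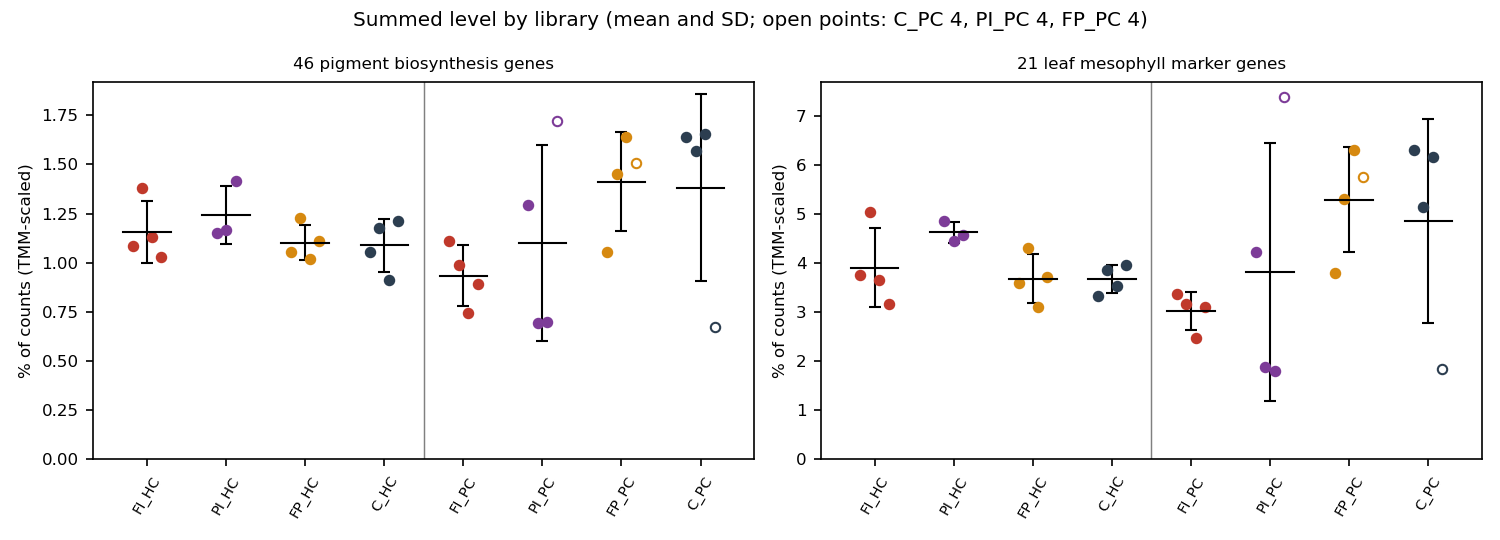
Summed level of the 46 pigment genes (left) and of 21 mesophyll marker genes (right) in each library, as % of counts after TMM scaling, with group means and SD. In both panels C_PC 4, PI_PC 2 and PI_PC 3 are the lowest points and PI_PC 4 is the highest.

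In 12 of the 38 tested genes the 3 lowest libraries were C_PC 4, PI_PC 2 and PI_PC 3, against 8.88% of all 16204 genes tested. These 12 include ChlI, ChlD, geranylgeranyl diphosphate reductase, both chlorophyllide a oxygenases, CrtL-e-1 and violaxanthin de-epoxidase (VDE). C_PC 4 lay below each of C_PC 1 to 3 in 31 of 38 genes, against 36.3% of all genes, and PI_PC 4 lay above each of PI_PC 1 to 3 in 29 of 38, against 30.8% of all genes. The beta-carotene hydroxylase CrtR-b2 went the other way, and the same 3 libraries were its highest: 11.6 CPM in PI_PC 2, 9.02 in PI_PC 3 and 9.06 in C_PC 4, against at most 7.40 CPM elsewhere. C_PC 4 also lay above C_PC 1 to 3 for NSY (chromoplastic lycopene beta-cyclase), LOC101252440 and LOC101261314.

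The FTAZ:IT-M filter was compared with its control at controlled photon flux. Zeaxanthin epoxidase (ZEP), which turns zeaxanthin into violaxanthin, fell in FI_PC. It was the only called gene among the 38, where 2.26% of all tested genes passed and 0.827% passed as lower (quasi-likelihood F-test of edgeR, adjusted p under 0.05 by Benjamini and Hochberg over all genes). The 38 genes had a median log2 fold change of -0.31, against -0.03 for all genes, and 31 were negative and 7 positive, while 53.8% of all genes were negative. At an unadjusted p under 0.05 there were 12 of the 38, against 15.8% of all genes, and the DESeq2 Wald test called 2, against 3.89% of all genes.

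ZEP (chromosome 2, 53007007 to 53012529 on build SL3.0, 16 exons) had 112, 104, 76.9 and 80.1 CPM in FI_PC, against 228, 244, 254 and 119 CPM in C_PC. All FI_PC libraries lay below all C_PC libraries, and the lowest control was C_PC 4. ZEP changed by -1.18 on the log2 scale (SE 0.21, edgeR adjusted p = 0.0034). A fit of these 2 groups alone gave -1.19 with an edgeR adjusted p of 0.128, and no library left out ended the call in the fit of all groups.

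Other steps lay lower in FI_PC without passing the test. The main glutamyl-tRNA reductase gene (LOC101266935), whose enzyme starts tetrapyrrole synthesis, had 319, 267, 197 and 232 CPM in FI_PC, against 499, 493, 562 and 189 CPM in C_PC. The difference was -0.78 on the log2 scale (SE 0.31, edgeR adjusted p = 0.207). C_PC 4 was the lowest of these 8 libraries and the other 3 controls lay above every FI_PC library.

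The same order held for ChlH and for uroporphyrinogen decarboxylase (LOC101250511), an early step shared with haem. ChlH had 2833, 2340, 1841 and 1972 CPM in FI_PC and 3948, 4417, 4363 and 1737 CPM in C_PC, a log2 fold change of -0.69 (SE 0.24, edgeR adjusted p = 0.148). LOC101250511 had 40.4, 39.8, 38.2 and 39.1 CPM in FI_PC and 73.5, 62.2, 79.1 and 37.7 CPM in C_PC, a change of -0.68 (SE 0.20, edgeR adjusted p = 0.0736). The FI_PC libraries of the decarboxylase were close to one another, with a spread of 39.4 ± 0.943 CPM (SD, n = 4).

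When the mismatched libraries were left out, 13 of the 38 genes passed in FI_PC against C_PC, 12 lower and 1 higher, against 6.35% of all genes, with 2.81% lower. When the set-apart libraries were left out it was 20 genes, 19 lower and 1 higher, against 9.34% of all genes, with 4.91% lower, and these 20 held all 13. Both fits compare the same FI_PC libraries with the same remaining 3 C_PC libraries, so the overlap of their calls is no separate evidence. Leaving out C_PC 4 by itself gave 9, and the share of all genes in that fit is not given here. Among the 12 lower genes were 3 of the 8 tested early tetrapyrrole genes, 2 of the 4 magnesium branch genes, 5 of the 9 genes from protochlorophyllide to chlorophyll, 1 of the 11 carotene synthesis genes and 1 of the 6 xanthophyll genes. Of the 20 mesophyll markers tested, 16 were lower in the first of these fits and 17 in the second, with median log2 fold changes of -1.19 and -1.20. Their part in the result was not tested.

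Without the mismatched libraries the largest decrease was that of LOC101244717, a light-dependent protochlorophyllide oxidoreductase, at -1.61 (SE 0.35, edgeR adjusted p = 0.00644). It had 48.2, 48.1, 29.2 and 42.7 CPM in FI_PC, against 125, 110, 150 and 19.8 CPM in C_PC. With all libraries the change was -1.26 and the edgeR adjusted p was 0.224. The higher gene was NSY, the lycopene cyclase known from ripening fruit, with 6.01, 5.66, 10.03 and 16.7 CPM in FI_PC and 4.30, 4.02, 3.67 and 9.12 CPM in C_PC. Its log2 fold change was 1.26 without the mismatched libraries (SE 0.36, edgeR adjusted p = 0.0373) and 0.85 with all (adjusted p = 0.224), and FI_PC 3 and 4 held its high values.

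**Figure D3:**
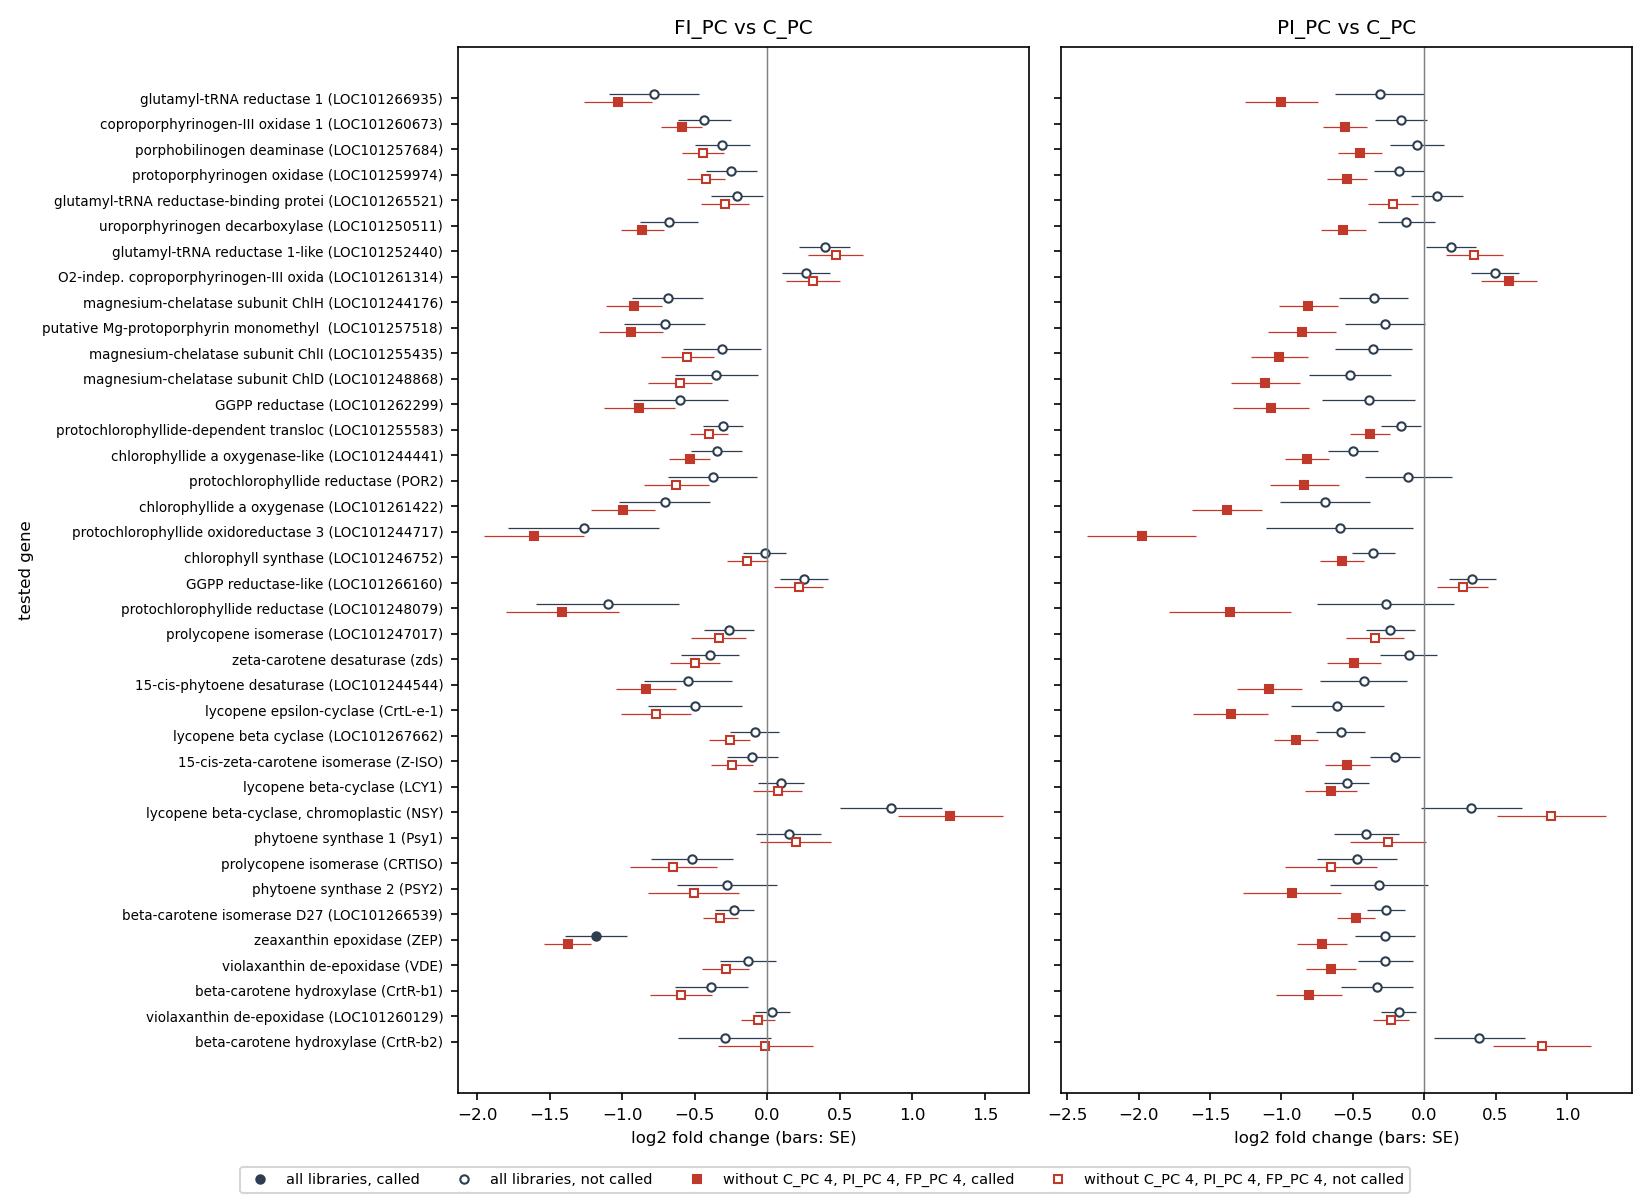
log2 fold change with its standard error of the 38 tested genes in FI_PC against C_PC (left) and in PI_PC against C_PC (right), with all libraries (circles) and without C_PC 4, PI_PC 4 and FP_PC 4 (squares). Filled symbols have an edgeR adjusted p under 0.05. With all libraries ZEP on the left is the only filled circle, and the squares lie further left for most genes.

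The PTB7-Th:IEICO-4F filter at controlled flux gave an answer that turned on which libraries were kept. With all libraries 0 of 38 genes passed in PI_PC against C_PC, where 0.296% of all genes did, while 6 had an unadjusted p under 0.05, against 14.5% of all genes, and DESeq2 called 2, against 2.3% of all genes. The median log2 fold change was -0.27 and 32 of 38 genes were negative, against 48.0% of all genes. Leaving out the mismatched libraries, 29 passed, 28 lower and 1 higher, against 28.8% of all genes, with 15% lower. In the same fit 19 of the 20 mesophyll markers were lower, with a median of -1.34, and 2 of 6 trichome markers lower and 1 higher. Of 4 senescing leaf markers 1 was higher and 1 lower. The search for dividing-cell markers left 1 tested gene, a calcyclin-binding protein caught by its name and no B-type cyclin, and it was higher. Leaving out the set-apart libraries, only PI_PC 1 and the mismatched PI_PC 4 remained in PI_PC. In that fit 0 of 38 passed, against 1.93% of all genes, with 4 at an unadjusted p under 0.05, against 14.5% of all genes, and a median of -0.08. The mesophyll markers then had a median of -0.06.

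The PI_PC libraries differed widely among themselves. Geranylgeranyl diphosphate reductase had 3241, 1354, 1523 and 4656 CPM in PI_PC, against 4543, 3974, 4350 and 1246 CPM in C_PC. CrtL-e-1 had 49.1, 25.2, 20.1 and 80.9 CPM in PI_PC, against 79.2, 75.5, 86.4 and 26.1 CPM in C_PC. For both genes PI_PC 4 lay with C_PC 1 to 3, and C_PC 4 lay with PI_PC 2 and 3. The log2 fold changes were -0.39 for the reductase (SE 0.33, edgeR adjusted p = 0.608) and -0.61 for the cyclase (SE 0.33, edgeR adjusted p = 0.401).

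The FTAZ:PCBM filter gave no called pigment gene at controlled flux. In FP_PC against C_PC 0 of 38 passed and 0 had an unadjusted p under 0.05. Of all genes 0% passed with edgeR, 652 or 4.02% had an unadjusted p under 0.05, and DESeq2 called 4, which is 0.0247%, with 0 among the 38. The 38 changes divided into 19 positive and 19 negative, or 15 and 23 with DESeq2 size factors, with a median of 0.00. ZEP had 205, 291, 316 and 240 CPM in FP_PC, against 228, 244, 254 and 119 CPM in C_PC, and the groups overlapped.

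At controlled height the filters were set against C_HC, whose libraries stood close together. With all libraries 0 of 38 genes passed in FI_HC (0% of all genes passed), in PI_HC (2.12% of all genes passed) and in FP_HC (0.037% of all genes passed). In that order 0, 4 and 1 of the 38 had an unadjusted p under 0.05, against 5.19%, 15.9% and 6.75% of all genes, and DESeq2 called 0, 2 and 0, against 0.0123%, 4.17% and 0.0679% of all genes.

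The largest positive change in PI_HC was again that of ZEP, which had 195, 204 and 222 CPM in PI_HC, against 117, 121, 102 and 141 CPM in C_HC. The 3 PI_HC libraries lay above all 4 controls. The difference was 0.79 on the log2 scale (SE 0.23, edgeR adjusted p = 0.0645), and without the mismatched libraries, none of which belongs to these groups, the edgeR adjusted p was 0.00655 at the same change.

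Uroporphyrinogen decarboxylase LOC101250511 showed the same separation, with 69.0, 64.3 and 73.8 CPM in PI_HC, against 42.4, 42.8, 45.9 and 48.9 CPM in C_HC. Its change was 0.62 (SE 0.21, edgeR adjusted p = 0.131). Without the mismatched libraries its edgeR adjusted p was 0.0165, and 2 of the 38 genes passed, against 4.39% of all genes. Without the set-apart libraries 4 passed, against 5.67% of all genes, and 3 of 20 mesophyll markers were higher. In the other direction lay Psy1, a phytoene synthase that could be counted over little of its length, at -0.81 (SE 0.25, edgeR adjusted p = 0.0848).

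**Figure D4:**
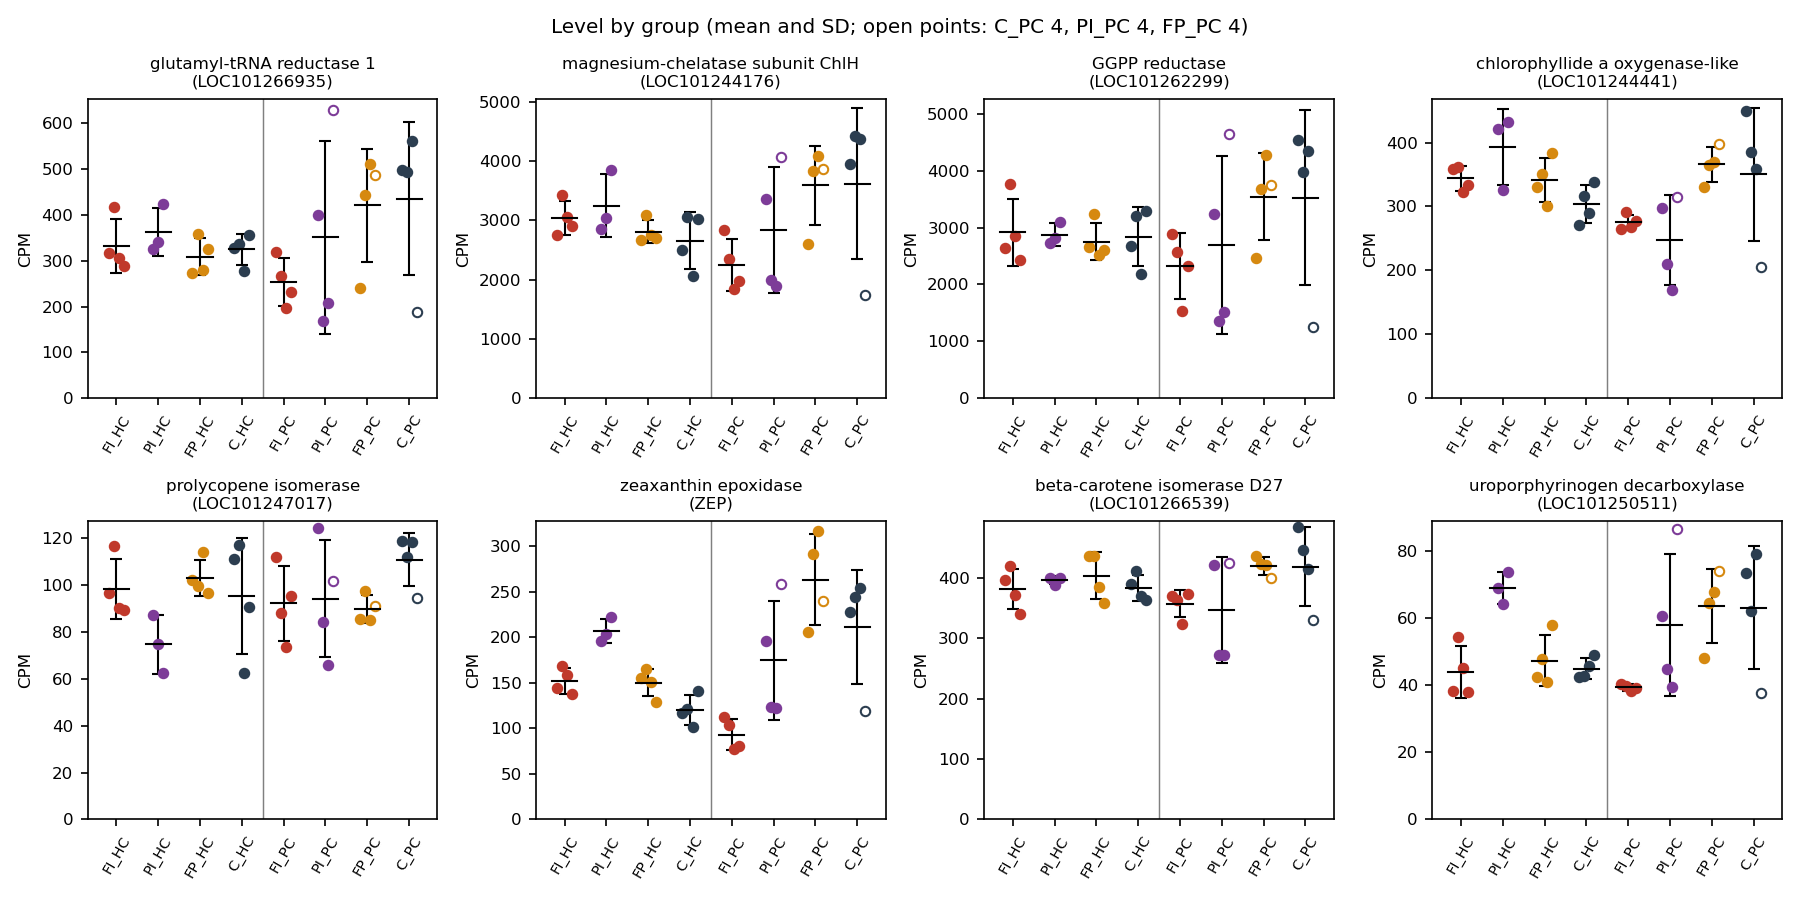
CPM of 8 pigment genes by group, HC groups left and PC groups right of the grey line, with each library as a point, group means as bars and SD as whiskers; open points are C_PC 4, PI_PC 4 and FP_PC 4. ZEP in FI_PC, at 76.9 to 112 CPM, lies below its level in every C_PC library, and ZEP in PI_HC, at 195 to 222 CPM, above every C_HC library.

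Between the intensity experiments 1 of the 38 pigment genes was called, in PI_HC against PI_PC, which is no excess over the 3.5% of all genes. It was a chlorophyllide a oxygenase-like gene (LOC101244441), whose enzyme family makes chlorophyll b. This gene had 422, 325 and 432 CPM in PI_HC, against 297, 210, 169 and 315 CPM in PI_PC. Every PI_HC library was above every PI_PC library, and PI_PC 2 and 3 were the lowest. The log2 fold change was 0.67 (SE 0.19, edgeR adjusted p = 0.0462), in a comparison where 3.5% of all genes passed and 2.03% were higher. Without the set-apart libraries only PI_PC 1 and 4 remained in PI_PC. The change of LOC101244441 was then 0.36 (edgeR adjusted p = 0.122) and 0 of 38 passed, against 3.95% of all genes, with 9 at an unadjusted p under 0.05, against 19.5% of all genes. Without the mismatched ones 8 passed, all higher, among them LOC101244717, CrtL-e-1 and ChlD, against 15.5% of all genes, and 15 of 20 mesophyll markers were higher too, with a median of 0.97. Of the 7 fits that left out 1 library of these groups, 4 lost the call of LOC101244441. It was also lost with the replicate block (edgeR adjusted p = 0.0515), with DESeq2 size factors (0.0506), with no low-count filter (0.0577) and when PI_HC and PI_PC were fitted alone (0.322).

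For the other filters the intensity experiments gave 0 called pigment genes with all libraries, in FI_HC against FI_PC (0.111% of all genes passed), FP_HC against FP_PC (0.0494%) and C_HC against C_PC (0.309%). At an unadjusted p under 0.05 these had 1, 4 and 4 of the 38, against 6.16%, 8.09% and 13.1% of all genes, and DESeq2 called 0, 1 and 1, against 0.259%, 0.42% and 1.81% of all genes. ZEP lay lower with controlled height under the control filter, at 117, 121, 102 and 141 CPM in C_HC and 228, 244, 254 and 119 CPM in C_PC (log2 fold change -0.82, SE 0.21, edgeR adjusted p = 0.0833). Under FTAZ:PCBM it had 156, 165, 151 and 129 CPM in FP_HC and 205, 291, 316 and 240 CPM in FP_PC, with no overlap (change -0.81, SE 0.21, edgeR adjusted p = 0.182). After removal of the mismatched libraries ZEP passed in both, at -1.01 (edgeR adjusted p = 0.00235) and -0.85 (edgeR adjusted p = 0.0106). It was then 1 of 3 called genes in C_HC against C_PC, against 1.76% of all genes, and the 1 called gene in FP_HC against FP_PC, against 0.844%. After removal of the set-apart libraries 9 genes passed in C_HC against C_PC, all lower, against 3.84% of all genes, and 12 of 20 mesophyll markers were lower. ZEP was then the 1 called gene in FP_HC against FP_PC, where it was lower and 0.661% of all genes passed, and in FI_HC against FI_PC, where it was higher and 0.275% passed.

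Whether a filter changed the genes by different amounts in the 2 experiments was tested as an interaction. For ZEP the FI effect was 1.53 higher on the log2 scale at controlled height than at controlled flux (SE 0.30, edgeR adjusted p = 0.00924). ZEP was the 1 of 38 genes to pass, against 1.19% of all genes, with 0.494% higher. It had 144, 169, 159 and 138 CPM in FI_HC against 117, 121, 102 and 141 CPM in C_HC, which overlap, whereas FI_PC lay wholly below C_PC. The PI interaction gave 0 of 38, against 0.802% of all genes. Before adjustment 6 of the 38 had a p under 0.05, against 14.7% of all genes, and DESeq2 called 2, against 2.54% of all genes. The FP interaction gave 0 of 38, where 0% of all genes passed with edgeR and with DESeq2 and 1 of the 38 had an unadjusted p under 0.05, against 3.66% of all genes. These comparisons share the control libraries. With the mismatched libraries left out, the FI interaction passed in 7 genes, all higher, against 3.48% of all genes and 1.47% higher. The PI interaction then passed in 25, of which 22 were higher, against 17.4% of all genes and 8.91% higher. Of the 20 mesophyll markers 13 were higher in this FI interaction and 17 in this PI interaction, with medians of 1.42 and 1.74. With the set-apart libraries left out, the FI interaction passed in 13, of which 12 were higher, against 4.96% of all genes, and the PI interaction in 2, against 1.98%, while 16 mesophyll markers were higher in the FI interaction. In that fit only PI_PC 1 and 4 remained in PI_PC.

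By group mean, ZEP was lowest in FI_PC, at 93.2 ± 17.4 CPM. Above it came C_HC at 120 ± 16.1, FP_HC at 150.1 ± 15.1, FI_HC at 152 ± 14.1, PI_PC at 175 ± 65.3, PI_HC at 207 ± 13.4, C_PC at 211 ± 62.5 and FP_PC at 263 ± 50.0 (SD, n = 4, and n = 3 for PI_HC). From FP_HC upwards each neighbouring pair differed by less than the larger of its 2 SDs, whereas C_HC differed by more than either SD from FI_PC and from FP_HC. Across the 38 genes the highest group mean lay in FP_PC for 14 and in C_PC for 9, and the lowest in FI_PC for 14 and in PI_PC for 9. This order turned on single libraries. Without the mismatched ones the highest mean lay in FP_PC for 3 and in C_PC for 28, and the lowest in FI_PC for 8 and in PI_PC for 19. Without the set-apart ones the highest lay in FP_PC for 2 and in C_PC for 21, and the lowest in FI_PC for 17 and in PI_PC for 5.

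Several steps are encoded by more than 1 gene, and the copies took unequal shares. Of the level per kilobase of 3 protochlorophyllide reductase genes, which carry out the light-dependent step, POR2 held 61.4% to 82.5%, LOC101244717 13.5% to 33.5% and LOC101248079 2.37% to 7.00%. LOC101244717 held 19.2%, 21.01%, 19.2% and 21.4% in FI_PC, against 31.3%, 32.8%, 33.5% and 17.5% in C_PC, so the share was lower in FI_PC than in 3 of the 4 controls. In PI_PC it held 22.7%, 13.5%, 14.2% and 30.8%, and over the HC libraries it ranged from 22.1% to 30.2%. Of the chlorophyllide a oxygenase pair, LOC101261422 held 26.4% to 42.8%.

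Of the glutamyl-tRNA reductase pair, LOC101252440 held the smaller share. It was 7.20%, 9.52%, 13.8% and 12.9% in FI_PC, against 3.84%, 4.62%, 3.51% and 12.1% in C_PC, and 14.3% and 14.6% in PI_PC 2 and 3. The second geranylgeranyl diphosphate reductase gene (LOC101266160) held 0.310% to 1.46% of its pair, CrtR-b2 1.04% to 11.5% of the beta-carotene hydroxylases, and the second violaxanthin de-epoxidase gene (LOC101260129) 7.67% to 17.1%. Near-identical copies can divide reads, so these shares carry that limit. VDE has 6 exon records and LOC101260129 has 2, so the loss of fragments across exon junctions also bears on the share of that pair.

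**Figure D5:**
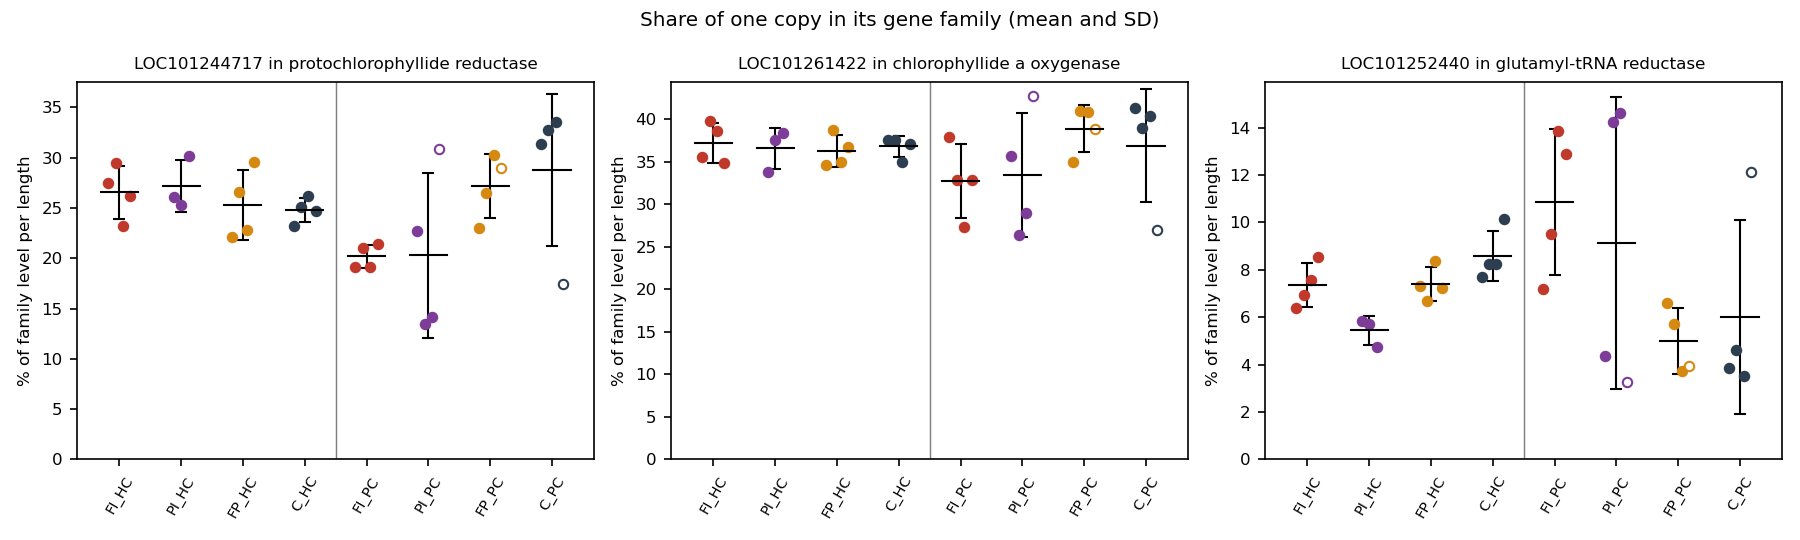
Share of 1 copy in the summed level per kilobase of its gene family, by group (each point a library, bars the mean, whiskers the SD, open points C_PC 4, PI_PC 4 and FP_PC 4), for LOC101244717 among 3 protochlorophyllide reductases, LOC101261422 among 2 chlorophyllide a oxygenases and LOC101252440 among 2 glutamyl-tRNA reductases. The FI_PC points of LOC101244717 lie between 19.2% and 21.4%, below C_PC 1 to 3.

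Lists of neighbouring steps were described beside the enzymes. The MEP pathway supplies the isoprenoid units, and its list here also holds geranylgeranyl pyrophosphate synthases. With all libraries 0 of 10 tested genes of this MEP and prenyl list were called by edgeR in the 6 comparisons of a filter with its control, nor any of 7 other tetrapyrrole genes or of 8 chlorophyll breakdown genes. Over their 60, 42 and 48 tests, 5, 2 and 5 had an unadjusted p under 0.05, and DESeq2 called 0, 0 and 1. Over all genes these 6 comparisons had shares of 4.02% to 15.9% at that unadjusted p, and DESeq2 called 0.0123% to 4.17%. Without the mismatched libraries the PI_PC comparison called 6 of the 10 genes of the MEP and prenyl list (2 higher, 4 lower), 5 of the 7 other tetrapyrrole genes (1 higher, 4 lower) and 7 of the 8 breakdown genes (3 higher, 4 lower), against 28.8% of all genes. In FI_PC it was then 1 of 7 other tetrapyrrole genes and 3 of 8 breakdown genes, all lower, against 6.35% of all genes. Without the set-apart libraries it was 2 of 7 and 3 of 8 in FI_PC, all lower, against 9.34% of all genes.

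Of the 6 tested carotenoid cleavage genes 1 was called with all libraries and of the 4 tested regulators 1, both higher in PI_HC against C_HC, where 2.12% of all genes passed. GLK2, a golden2-like factor that promotes chloroplast development in tomato fruit, rose in PI_HC. It had 34.3, 28.9 and 36.6 CPM in PI_HC, against 13.8, 13.6, 13.9 and 21.5 CPM in C_HC, without overlap (log2 fold change 1.08, SE 0.28, edgeR adjusted p = 0.0405).

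The carotenoid cleavage dioxygenase LOC101250535, whose family breaks carotenoids down into smaller molecules, rose as well, with 68.4, 72.0 and 132 CPM in PI_HC, against 28.8, 31.6, 47.0 and 40.2 CPM in C_HC (change 1.30, SE 0.31, edgeR adjusted p = 0.0231). PI_HC 4 held its highest value, and every PI_HC library was above every C_HC library. Both genes also passed in the PI interaction, at 1.66 and 1.96 (edgeR adjusted p = 0.0379 for GLK2 and 0.0265 for LOC101250535), where 0.802% of all genes did. Leaving out 1 library ended the PI_HC call of GLK2 in 6 of 7 fits and that of LOC101250535 in 3 of 7, and the interaction call in 10 of 15 and 5 of 15 fits. After TMM scaling the mesophyll markers held 4.87%, 4.47% and 4.57% of counts in PI_HC, against 3.34%, 3.87%, 3.54% and 3.97% in C_HC, and their part in these changes was not tested.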

How the data were processed

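RNA-seq fragment counts of 31 leaf libraries were used. The deposited values are raw counts, which the authors obtained from read pairs by reverse-stranded counting (featureCounts 2.0.1, RefSeq annotation, build SL3.0), per the file headers. FastQC, HISAT2 and DESeq2 are named in the submitters' processing notes without versions. Each exon record was a feature, and fragments over more than 1 record were not counted.

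Records were summed per NCBI gene into 31146 genes. 6 records without a gene, with 0.0279% of counts, were left out. The main test was edgeR 4.0.16 in R 4.3.3 (quasi-likelihood, TMM, filterByExpr), with all libraries in 1 fit, 1 mean per group and 13 contrasts, each adjusted over 16204 genes at 0.05. The standard error is the log2 fold change over the square root of F. DESeq2 1.42.0 was an alternative. A floor of 3 counts equals 0.197 to 0.219 CPM and covers counting error only.

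The named genes are those called in a filter comparison, an interaction or between experiments, and the gene of highest mean CPM in each of 5 roles. Others (LOC101250511, LOC101257518, LOC101261422, POR2, LOC101244717, LOC101248079, LOC101252440, NSY, CrtR-b2, CrtL-e-1, Psy1, GLK2, LOC101250535) were chosen after their values were seen. The members and lists were chosen with earlier results of these data known. Sequences and promoters were not used here.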

Additional observations from a re-analysis of the deposited data

Results flagged for a closer look

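The first group of these results are libraries set apart from the other 3 of their group by a wide gap. There were 7 in 133 groups of 4 libraries, and chance gives about 1 in 20. FP_PC 1 was the low library of its group in 3 genes, with 2606 CPM of ChlH, 181 CPM of LOC101261422 and 158 CPM of POR2. C_PC 4 held 954 CPM of the cyclase LOC101257518, its lowest control, and 9.12 CPM of NSY, its highest. FP_HC 1 held 21.02 CPM of LOC101252440, the lowest, and C_HC 4 held 21.5 CPM of GLK2, the highest.

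The second group are effects of a filter that differed between the 2 intensity experiments by a test of the difference itself. The log2 difference was 1.53 for ZEP under FTAZ:IT-M, 1.66 for GLK2 under PTB7-Th:IEICO-4F and 1.96 for LOC101250535 under PTB7-Th:IEICO-4F. Leaving out 1 library kept the call of ZEP in 16 of 16 fits, and ended that of GLK2 in 10 of 15 and that of LOC101250535 in 5 of 15.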

How the results depend on the processing

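The counts of called pigment genes among 38 changed with these alternatives. With the DESeq2 Wald test there were 2 in FI_PC, 2 in PI_PC and 2 in PI_HC, each against its control, 1 in C_HC against C_PC, 1 in FP_HC against FP_PC and 2 in the PI interaction. DESeq2 size factors, no low-count filter and the replicate block each gave 0 in PI_HC against PI_PC, where the call of LOC101244441 was near the threshold. Fitting the compared groups alone, with fewer samples, gave 0 in FI_PC against C_PC, 0 in PI_HC against PI_PC, 2 in PI_HC against C_HC and 1 in FP_HC against FP_PC. Without C_PC 4, PI_PC 4 and FP_PC 4 it was 13 in FI_PC, 29 in PI_PC, 2 in PI_HC, 3 in C_HC against C_PC, 8 in PI_HC against PI_PC, 1 in FP_HC against FP_PC, 7 in the FI and 25 in the PI interaction. Without C_PC 4, PI_PC 2 and PI_PC 3, an alternative chosen after seeing the data, it was 20 in FI_PC, 4 in PI_HC, 9 in C_HC against C_PC, 1 in FI_HC against FI_PC, 0 in PI_HC against PI_PC, 1 in FP_HC against FP_PC, 13 in the FI and 2 in the PI interaction. That alternative kept only PI_PC 1 and 4 in PI_PC. The cause was not tested beyond the fits with fewer samples. Leaving out 1 library gave 1 to 9 in FI_PC, 0 to 8 in PI_PC and 0 to 1 in PI_HC, each against its control, 0 to 1 in C_HC against C_PC, 0 to 4 in PI_HC against PI_PC, 1 to 2 in the FI and 0 to 5 in the PI interaction. The upper ends in FI_PC, PI_PC, C_HC and both interactions came without C_PC 4, and in PI_HC against PI_PC without PI_PC 4. The shares of all genes in the fits without 1 library and in those of the compared groups alone are not given here. Counts from those fits are therefore not read as results about the pigment genes. Of the 27 fold changes of named genes followed through the alternatives 0 changed sign, while signs of other genes did, as in FP_PC against C_PC with DESeq2 size factors. Many of the 27 were chosen after their values were seen, which favours a stable sign. Replicate numbers come from the titles and showed no steady pairing of the libraries. The mean correlation of same-numbered libraries ran from -0.196 in PI_PC against C_PC to 0.113 in FP_HC against C_HC. Single pairs ran from -0.693 to 0.384 in PI_PC against C_PC and from -0.247 to 0.403 in FP_PC against C_PC. In the latter 2 of 4 libraries matched their own number best. With the replicate block ZEP kept its call in FI_PC against C_PC (edgeR adjusted p = 0.0077). Depth limits little among tested genes, whose counts start at 16, while genes with several transcripts or many exons are limited by the counting.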
